A study of Mus musculus with 12 samples.

Results

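The transcriptome of unmodified myeloid-derived suppressor cells (MDSCs) was described from bulk RNA-seq of 4 libraries out of the 12 of the study, with no comparison to the other groups. The 4 libraries were chosen by their titles, which name MDSCs kept with IL-6 and number them as replicates 1 to 4. The study asked how rapamycin-loaded nanoparticles on the surface of MDSCs change these immune cells, and the cells described here are its starting point without particles. The other 8 libraries, 4 of MDSCs carrying blank nanoparticles (MDSC-NP-Blk) and 4 of MDSCs carrying rapamycin nanoparticles (CITED), were left out.

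The cells came from wild-type mice. According to the methods, bone marrow of female C57BL/6 mice aged 6 to 10 weeks was cultured with GM-CSF and IL-6, each at 40 ng/ml, and nonadherent cells were collected on day 3 and purified as CD11b+Gr1+ cells. They were then held for 24 hours in medium with IL-6 (40 ng/ml) alone before RNA was taken. Whether replicates share a marrow preparation, and whether these control cells received the azido sugar used for particle attachment, is not stated in the sources used here. The labels give the tissue as CNS, whereas the methods describe cultured marrow cells, so nervous system markers were examined below.

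MDSCs are immature myeloid cells that restrain T cells, and they are known from tumors and chronic inflammation. Polymorphonuclear MDSCs resemble neutrophils and carry Ly6G, monocytic MDSCs resemble monocytes and carry high Ly6C, and the antibody Gr1 binds both Ly6G and Ly6C. Their suppressive means include arginine depletion by arginase, nitric oxide and reactive oxygen species, ligands of inhibitory receptors, and soluble mediators. GM-CSF and IL-6 are the growth factors most used to raise such cells from marrow, and IL-6 signals through its receptor and gp130 to STAT3.

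The libraries held between 21549696 and 27832481 counts in genes, and 11433 to 11463 gene symbols reached 1 CPM (the count divided by all gene counts of the library, times 1e6) in a single library. Of 35303 symbols, 11070 (31.4%) had at least 1 CPM in all 4 libraries and are described as detected. Another 20364 symbols had 3 counts or fewer in every library, which is the floor used here and corresponds to 0.108 to 0.139 CPM, and 3869 lay between. Among protein-coding genes 10876 of 21434 (50.7%) were detected, and of 660 genes in 27 lists of markers and pathways 477 were detected, 83 were at the floor, and 100 lay between. Protein-coding genes took 99.0% ± 0.0391 of all counts, mitochondrial genes 2.03% ± 0.110, ribosomal protein genes 4.03% ± 0.140, and long noncoding RNA genes 0.0588% ± 0.00319 (values with ± are mean and SD over libraries, n = 4 throughout). The 10 highest genes held 9.0% ± 0.210 of the counts, and 634 genes held 50% of them. Depth covers counting error only, since reads without molecular identifiers are not independent molecules.

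Levels of different genes were compared only per length, as CPM per kilobase of the representative transcript (below, "per kilobase"), whereas values for a single gene across libraries are in CPM. In bulk RNA, few cells with much of a transcript and many cells with little of it cannot be told apart. Reads of near-identical sequences can be divided between genes by the quantification. For some genes, the share of 31-base words of the transcript in common with other genes is therefore given below. It is not given for every gene concerned, and Ass1 (59.2%), Cstdc4 (41.4%), and the marker Csf3r (24.3%) also share words.

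All 6 genes given as markers of these cells were detected. Ccl6, a chemokine of myeloid cells, had 4696, 5072, 4705, and 4736 CPM in replicates 1 to 4. Itgam, which encodes the CD11b chain used for the purification, had 2296, 2384, 2391, and 2473 CPM, although 91.3% of its words also occur in other genes. Mpo, the myeloperoxidase of primary granules, had 1288, 1143, 1312, and 1250 CPM. These 3 genes were above 1000 CPM in every library, and Mpo was lowest in replicate 2, where Ccl6 was highest. Ly6c2, which encodes a Ly6C antigen, had 1179, 1180, 1161, and 1200 CPM. Arg1, the arginase that depletes arginine, had 490, 413, 443, and 399 CPM. Csf3r, the receptor for G-CSF on granulocytes and their precursors, had 179, 216, 192, and 210 CPM. Arg1 was highest in replicate 1, and Csf3r was lowest there.

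Per kilobase the 6 markers fell in the order Ccl6 (3335 ± 125), Ly6c2 (1410 ± 19.0), Itgam (637 ± 19.3), Mpo (454 ± 27.3), Arg1 (271 ± 25.1), and Csf3r (56.8 ± 4.84), and no neighbors in this order overlapped between libraries. Over all 35220 symbols with a length, Ccl6 took rank 14 (13 to 14 over the libraries), Ly6c2 rank 25 (25 to 26), Itgam rank 100 (97 to 105), Mpo rank 148 (137 to 167), Arg1 rank 263 (241 to 283), and Csf3r rank 1137 (1058 to 1264). On GRCm39, Ccl6 lies at chr11:83478708-83483913, Ly6c2 at chr15:74980003-74988467, Itgam at chr7:127661808-127717753, Mpo at chr11:87684407-87695239, Arg1 at chr10:24791118-24803817, and Csf3r at chr4:125918262-125938236.

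The 2 antigens behind the Gr1 stain differed in level. Ly6g had 178, 184, 177, and 183 CPM, which is 191 ± 3.42 per kilobase against 1410 for Ly6c2, and the libraries did not overlap. Both share sequence with the rest of the Ly6 family, 53.9% of words for Ly6c2 and 11.0% for Ly6g. Ly6c1, the neighbor most like Ly6c2, had 0.776 to 2.18 CPM, and reads that fit both genes may have been divided between them. Of 16 surface genes listed for MDSCs, 14 were detected, with a median of 124 per kilobase. Cd177, a neutrophil surface protein that holds proteinase 3 at the membrane, had 2343 to 2399 CPM. Itgb2, the partner chain of CD11b, had 1947 ± 44.1 CPM, and Cd84, Trem1, and Olr1, surface receptors used to mark MDSCs, had 220, 117, and 83.0 CPM. Slc27a2, a fatty acid transporter reported in polymorphonuclear MDSCs, had a mean of 0.111 CPM.

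The highest genes per kilobase were the S100 pair that forms calprotectin, the main cytosolic protein of neutrophils. S100a8 had 11917, 12890, 11433, and 12156 CPM and S100a9 had 13285, 13734, 12068, and 12832 CPM, with replicate 3 lowest for both. Per kilobase they reached 24592 ± 1234 and 22692 ± 1242. These ranges overlapped each other, and S100a8 ranked first in each library. The next gene, Fth1, the heavy chain of the iron store ferritin, had 7124 ± 180 per kilobase and did not overlap with either.

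**Figure D1:**
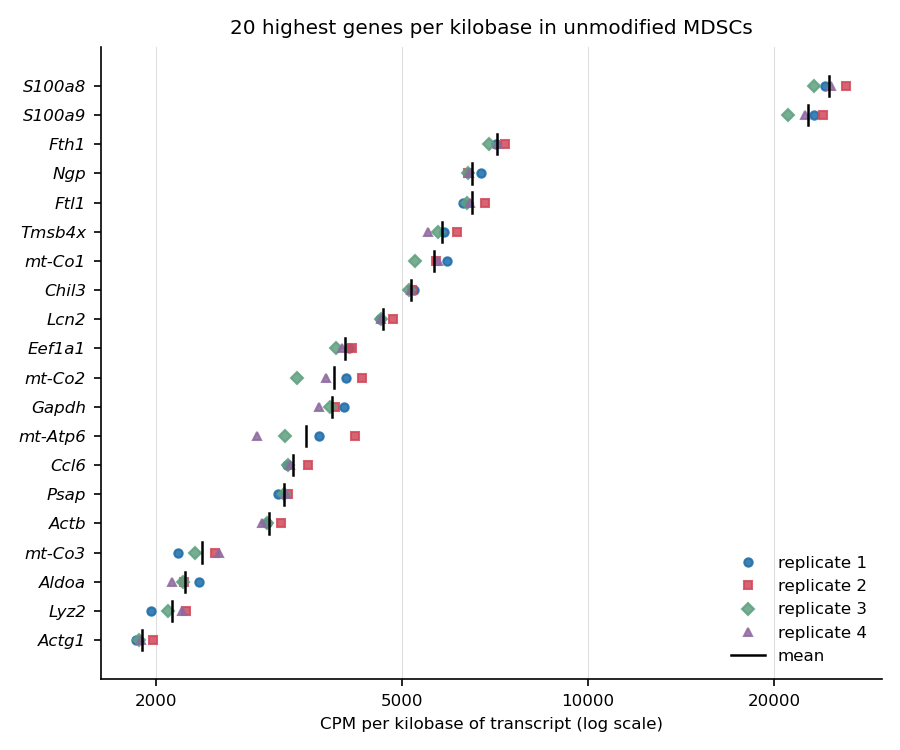
The 20 highest genes in CPM per kilobase of transcript (x axis, log scale), with a symbol for each of the 4 libraries and a line for the mean. S100a8 and S100a9 stand apart between 21098 and 26200, and the other 18 genes lie between 1857 and 7351, 12 of the 19 neighboring pairs overlapping.

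After ferritin the list held Ngp (6480 ± 158), a neutrophil granule protein, Ftl1 (6478 ± 241), the ferritin light chain, Tmsb4x (5806 ± 264), which binds free actin, and mt-Co1 (5638 ± 281), a subunit of cytochrome oxidase, all per kilobase. Chil3, a chitinase-like protein of myeloid cells, followed at 5178 ± 39.5, and Lcn2, which binds bacterial iron carriers, at 4666 ± 108. Of these, Ftl1 shares 86.7%, mt-Co1 63.9%, and Chil3 44.8% of its words with other genes. Psap (3222 ± 55.1), the precursor of lysosomal saposins, and Lyz2 (2124 ± 122), lysozyme, were also among the first 20. Ccl6, given above, was among them too. The others included genes that most cells express, such as Eef1a1 (4041) for translation, Gapdh (3854) and Aldoa (2225) for glycolysis, and Actb (3048) and Actg1 (1899) for actin, although between 35.2% and 86.0% of the words of these 5 genes occur elsewhere. Thus 8 of the 20 belonged to the lists of granule, granulocytic, monocytic, or chemokine genes.

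Thbs1, the matrix protein thrombospondin 1, had 11101, 11424, 11647, and 11888 CPM and took rank 21 per kilobase (1847).

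Primary granules form first in granulocyte development and hold serine proteases and myeloperoxidase. All 8 genes of this list were detected, with a median of 352 per kilobase. Elane, neutrophil elastase, had 746, 653, 716, and 655 CPM. Prtn3, proteinase 3, had 584, 532, 577, and 538 CPM. Ctsg, cathepsin G, had 415, 399, 425, and 395 CPM. In all 3 proteases replicates 1 and 3 were the higher libraries, and the same held for Mpo. Per kilobase Elane (702) lay above Prtn3 (544) and Prtn3 above Mpo (454) without overlap, whereas Mpo and Ctsg (408) overlapped. Ctsc, the cathepsin that activates these proteases, had 181 per kilobase, and Prss57, another serine protease of these granules, had 17.2.

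Genes of the granules formed later, together with other genes of maturing neutrophils, were higher still. All 18 of them were detected, with a median of 870 per kilobase and a sum of 57676 to 62004 CPM. Ngp had 8248, 7846, 7853, and 7880 CPM, and Lcn2 had 4208, 4418, 4225, and 4228 CPM. Ltf, the iron-binding lactoferrin, had 4336, 4807, 4633, and 4738 CPM. Ngp was highest in replicate 1, and Lcn2 and Ltf in replicate 2. Camp, the cathelicidin antimicrobial peptide, had 868 per kilobase, Pglyrp1, a peptidoglycan binder, 1269, and the collagenase Mmp8 875. The gelatinase Mmp9 (328), the resistin-like Retnlg (368), and Padi4 (135), the enzyme that citrullinates histones, marked the lower part of the list, and Mmp25 was lowest at 16.2. Genes of early and late granules were thus present together in each library.

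Of 25 granulocytic genes 24 were detected, with a median of 108 per kilobase. The highest after the S100 pair were Anxa1 (528), a regulator of neutrophil adhesion, Il1r2 (520), the decoy receptor for IL-1, and the stefins Stfa2l1 (385) and Stfa2 (192), of which 41.7% and 33.3% of words are shared within their family. The receptor Mrgpra2b was detected at 1.97 CPM, and its copy Mrgpra2a, at 0.199 CPM, was the member that was not, although 93.7% and 91.7% of their words are shared.

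Promoter sequences were examined because granule genes of the early and late kind are known targets of the factors PU.1 and C/EBP. The windows were the 250 bases before each RefSeq start on GRCm38.p6 (32851 windows of 27025 genes, with 505 of the 665 list genes matched), and they were searched on both strands. The motifs were chosen after the levels had been seen. The letters GAGGAAGT, a PU.1-type ETS motif, occurred in 2.44% of all windows, in 2.76% of those of detected genes, in 4 of 6 windows of the primary granule genes (Ctsc, Elane, Mpo, and Prtn3), and in 3 of 16 of the later granule genes. The letters TTGCNNAA, a C/EBP-type motif, occurred in 9.56% of all windows and in 7.63% of those of detected genes. They occurred in 0 of 6 windows of the primary granule genes and in 6 of 16 of the later granule genes (Lcn2, Ltf, Mmp8, Ngp, Retnlg, and S100a9). The C/EBP-type letters were also found in lists with few detected genes, in 4 of 14 windows for T cells, 4 of 15 for NK cells, and 4 of 17 for the CNS. A match shows only that the letters are there. The stretches that follow show the match in capitals for 3 primary granule genes, for the highest gene, and for the marker Ly6c2, each read 5′ to 3′ on the strand of its gene.
Elane (chr10:79886201-79886260, plus strand): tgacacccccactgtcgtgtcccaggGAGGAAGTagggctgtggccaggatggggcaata
Prtn3 (chr10:79879546-79879605, plus strand): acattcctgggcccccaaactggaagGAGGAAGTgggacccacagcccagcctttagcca
Mpo (chr11:87793534-87793593, plus strand): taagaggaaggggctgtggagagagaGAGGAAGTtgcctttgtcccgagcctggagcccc
S100a8 (chr3:90668873-90668932, plus strand): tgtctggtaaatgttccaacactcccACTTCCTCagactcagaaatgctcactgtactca
Ly6c2 (chr15:75112046-75112105, minus strand): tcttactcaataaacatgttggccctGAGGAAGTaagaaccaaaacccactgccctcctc
The last base of the match lay 78 bases before the start in Elane, 88 in Prtn3, 217 in Mpo, 165 in S100a8, and 101 in Ly6c2. In S100a8 the letters stand on the other strand, so that the printed strand reads ACTTCCTC.

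For the C/EBP-type letters, the following stretches belong to later granule genes among the highest per kilobase, again with the match in capitals.
Ngp (chr9:110419771-110419807, plus strand): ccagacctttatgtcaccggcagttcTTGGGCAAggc
Lcn2 (chr2:32387922-32387981, minus strand): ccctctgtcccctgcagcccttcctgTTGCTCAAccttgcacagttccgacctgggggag
Ltf (chr9:111019191-111019250, plus strand): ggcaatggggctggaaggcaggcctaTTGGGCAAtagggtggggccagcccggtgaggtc
S100a9 (chr3:90695924-90695971, minus strand): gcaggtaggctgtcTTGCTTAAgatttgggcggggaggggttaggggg
The match ended 4 bases before the start in Ngp, 209 in Lcn2, 68 in Ltf, and 229 in S100a9. In Ngp and Ltf it stands on the other strand, and both read TTGGGCAA. As another motif, the CCAAT box occurred in 33.9% of all windows and in 35.5% of those of detected genes. It occurred in 24 of 37 windows of the proliferation genes, among them Ccnb1, Ccnb2, Cdk1, Plk1, and Top2a. The AP-1 motif TGACTCA occurred in 4.46% of all windows, in 3.25% of those of detected genes, and in 10 of 59 windows of cytokine genes. Among these cytokine genes were Il1a, Il1rn, and Il6.

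Monocytic genes were split. Of 24, 17 were detected, with a median of 11.4 per kilobase. Chil3 had 8038, 7986, 7893, and 7959 CPM and Psap had 8342, 8681, 8530, and 8610 CPM, and both were even across libraries. Cd14, a coreceptor for lipopolysaccharide, had 204 per kilobase, Fn1, fibronectin, 158, and Csf1r, the receptor for M-CSF, 85.9. Ccr2, the receptor that brings monocytes out of the marrow, had 162, 172, 162, and 162 CPM, or 28.7 per kilobase. In contrast, Cx3cr1, the fractalkine receptor of patrolling monocytes, had 0.772 to 1.11 CPM. Some other genes of mature monocytes, Ace, Cd300e, Ms4a4c, and Ms4a6b, had means of 1.18, 0.490, 0.210, and 0.384 CPM. Low values did not extend to Spn, which encodes CD43 and is in the same list, at 318 ± 2.26 CPM. Per kilobase Spn overlapped with Csf1r. Klf4, a factor for monocyte maturation, was detected at 6.88 ± 1.17 CPM.

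Macrophage genes were detected in 24 of 30 cases, with a median of 19.4 per kilobase. Spp1, osteopontin, had 3341, 2924, 3070, and 3080 CPM, and Ctsd, a lysosomal protease, had 2485, 2559, 2482, and 2550 CPM. Gpnmb, a glycoprotein of lipid-laden macrophages, had 1042, 999.6, 1114, and 1086 CPM. All of these were among the higher members of the list in every library. Mmp12, the macrophage elastase, had 2608 ± 77.6 CPM and was named after its value was seen. Adgre1, which encodes F4/80, had 173 ± 5.79 CPM, and Mrc1, the mannose receptor, 83.1 CPM. The complement genes C1qa, C1qb, and C1qc had 23.7, 21.2, and 20.5 per kilobase. Markers of tissue-resident macrophages were low, with a mean of 0.482 CPM for Cd163 and 3 counts or fewer in every library for Timd4, Vsig4, and Clec4f.

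Genes of antigen presentation and dendritic cells were detected in 18 of 21 cases, with a median of 6.82 per kilobase. Cd74, the invariant chain of class II molecules, had 625, 716, 645, and 689 CPM. The class II chains H2-Aa, H2-Ab1, and H2-Eb1 had 184, 167, and 183 CPM. Itgax, which encodes CD11c, had 507 ± 21.1 CPM. The costimulatory genes Cd80 and Cd86 had 25.9 and 18.6 CPM, whereas Cd40 had a mean of 1.27 CPM and was not detected in all libraries. Genes that define dendritic cell subsets were low, with 2.22 CPM for Clec9a, 3.20 for Zbtb46, 0.362 for Xcr1, and 0.291 for Siglech.

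**Figure D2:**
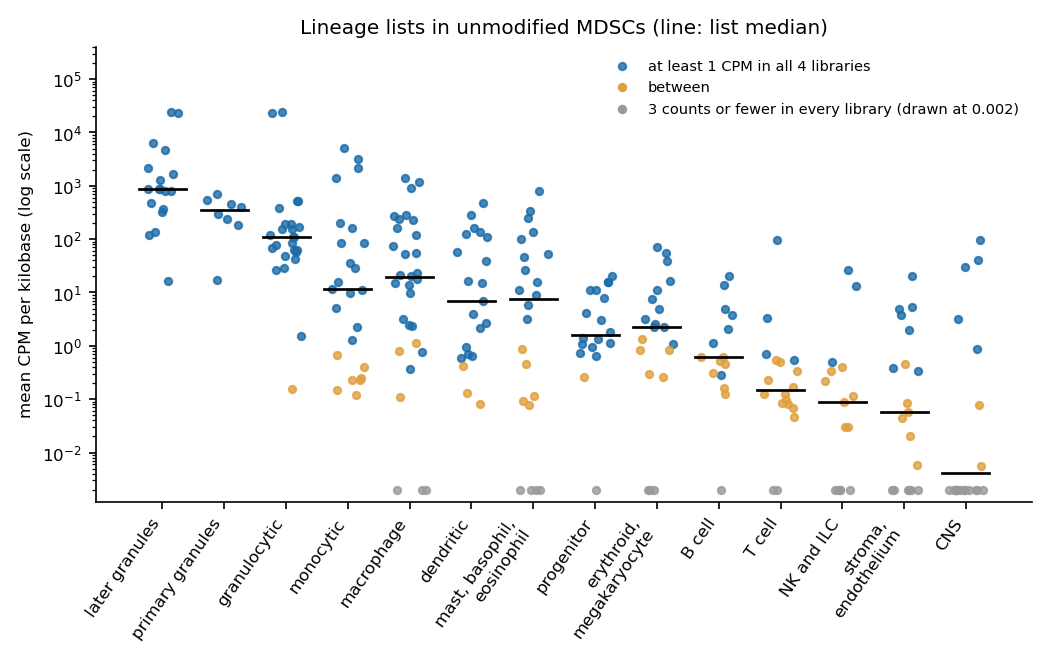
Mean CPM per kilobase (y axis, log scale) of every gene of 14 lineage and granule lists, 1 point per gene, with a line at each list median and genes at 3 counts or fewer in every library drawn at 0.002. The medians run from 870 for later granules through 108 for granulocytic and 11.4 for monocytic genes to 0.148 for T cell and 0.00414 for CNS genes.

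Markers of other granulocytes were present as well. Epx, the peroxidase of eosinophils, had 953, 781, 999.5, and 910 CPM, and Prg2, their major basic protein, had 672, 603, 700, and 666 CPM. Prss34 and Mcpt8, proteases of basophils, had 299 ± 9.39 and 114 ± 7.39 CPM. These genes were above 100 CPM in each library, and Epx and Prg2 were lowest in replicate 2. Of the list for mast cells, basophils, and eosinophils, 13 of 22 were detected (59.1%), against 50.7% of protein-coding genes. The eosinophil ribonucleases Ear6, Ear1, and Ear2 had 98.8, 53.6, and 47.2 per kilobase, with 74.5% of words shared for Ear1 and 60.1% for Ear2. Siglecf, a surface marker of eosinophils, had 15.2 CPM, whereas Ccr3, their eotaxin receptor, had a mean of 1.47 CPM, and Il5ra, the IL-5 receptor chain, had 0.401 CPM. Of the mast cell proteases, Cpa3, a carboxypeptidase that basophils also express, had 38.9 ± 0.778 CPM, Tpsb2, a tryptase, had a mean of 0.0976 CPM, Cma1 and Mcpt1 had 3 counts or fewer in every library, and Mcpt4 and Tpsab1 had 0 counts. Whether these transcripts came from separate eosinophils and basophils or from precursors within the gate was not tested.

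Genes of progenitors were detected in 16 of 18 cases but at low levels, with a median of 1.62 per kilobase. Myb had 69.0 ± 3.85 CPM, Kit 58.3 ± 6.38, and Gata2 56.7 ± 1.56, whereas Cd34 had 10.04 ± 0.425 and Flt3 2.32. Mecom, a factor of stem cells, had 3 counts or fewer in every library. Of 20 erythroid and megakaryocytic genes 12 were detected (60%), against 50.7% of protein-coding genes. Pf4, platelet factor 4, had 107 ± 3.91 CPM, Ppbp, another platelet chemokine, 45.2, and Itga2b, the platelet integrin chain, 68.5. The hemoglobin genes together took 0.000355% ± 5.81e-05 of counts, and Alas2 and Car1 of red cell precursors had 0 counts.

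Of the lymphocyte lists, 4 of 18 genes were detected for T cells (22.2%) and 3 of 15 for NK and other innate lymphoid cells (20%), against 31.4% of all symbols and 50.7% of protein-coding genes. For B cells 7 of 15 were detected (46.7%), a share near that of protein-coding genes, and 11 of 15 reached 0.5 CPM in all 4 libraries. Thy1, known as a T cell antigen, was the exception with 189, 175, 186, and 190 CPM. The defining T cell genes Cd3e, Cd3g, Cd4, Cd8a, and Trac had means of 0.186, 0.0871, 0.209, 0.398, and 0.0429 CPM, and Foxp3 of regulatory T cells had 3 counts or fewer in every library. The summed T cell list without regard to detection ran from 188 to 205 CPM, of which Thy1 made up 185. Of B cell genes, Sdc1 had 66.3 CPM, Ighm 23.5, and Cd22 15.7, whereas Ms4a1, which encodes the B cell antigen CD20, had 0.956 CPM. In the NK list Nkg7, a granule membrane protein, had 23.0 CPM and Il7r, the IL-7 receptor, 47.5, whereas Ncr1, Gzma, and Klra8 had 0 counts. The part of other cells in these values was not tested.

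Most nervous system markers were not detected, although the labels name the CNS. Of 20, 5 were detected, among them Mbp (89.3 ± 6.99 CPM), which encodes myelin basic protein and the golli proteins of blood cells, Tmem119 (67.1 ± 5.16 CPM), a marker of microglia that bone cells also express, Mag (6.51 CPM), and P2ry12 (2.05 CPM). Another 13 had 3 counts or fewer in every library. Gfap and Aqp4 of astrocytes, Olig1 and Olig2 of oligodendrocytes, Rbfox3, Snap25, Syt1, and Map2 of neurons, and Sall1 of microglia had 0 counts in all 4 libraries, which allows at most a share of 1.08e-05% to 1.39e-05% of counts. Of 19 genes of stroma, endothelium, and epithelium 7 were detected (36.8%), against 50.7% of protein-coding genes. Pecam1, which myeloid cells also express, led them at 75.5 CPM. The others were Vwf (42.7 CPM), Acta2 (14.7), Lepr (12.6), Kdr (11.5), Col1a1 (2.28), and Pdgfrb (1.81), and their source was not tested. In contrast, Cdh5 had 0.179 CPM, and Col3a1, Lum, Krt8, and Cxcl12 had 0 counts.

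Genes for suppressive enzymes were detected in 27 of 30 cases, with a median of 48.2 per kilobase. Parts of the oxidase that makes superoxide were among the highest. Cybb, its membrane catalytic chain, had 2135, 2175, 2270, and 2327 CPM, and Cyba, the partner chain, had 602, 670, 616, and 609 CPM. Ncf1, the cytosolic organizer, had 1210, 1258, 1251, and 1233 CPM. Cybb was highest in replicate 4 and Cyba in replicate 2. Per kilobase Cyba (787) was higher than Cybb (468) and Ncf1 (455), which overlapped, and the cytosolic chain Ncf4 had 178.

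Arginine metabolism was led by Arg1. Nos2, the inducible nitric oxide synthase, had 181, 154, 171, and 157 CPM. Per kilobase Arg1 had 271 and Nos2 39.5, and Arg2, the mitochondrial arginase, had 26.8. Ass1, which remakes arginine from citrulline, had 166 per kilobase, and Slc7a2, an arginine transporter, 42.7. Of the tryptophan-degrading enzymes, Ido1 had 3 counts or fewer in every library, Ido2 had a mean of 0.116 CPM, and Tdo2 had 0 counts. Il4i1, a phenylalanine oxidase, had 36.6 CPM. Genes for other mediators were Alox5ap (245 per kilobase) and Alox5 (128) for leukotrienes, Hmox1 (156), heme oxygenase, Nt5e (53.7) and Entpd1 (15.6) for adenosine, and Acod1 (37.3), which makes itaconate. Ptgs1 and Ptgs2, the cyclooxygenases, had 203 and 12.4 CPM, which is 70.7 and 2.61 per kilobase.

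Of 28 genes for ligands and receptors of immune checkpoints 18 were detected (64.3%), against 50.7% of protein-coding genes. Their median was 5.12 per kilobase. Vsir, which encodes VISTA, had 718, 747, 743, and 723 CPM. Sirpa, the receptor for CD47, had 596, 652, 633, and 656 CPM. Cd274, which encodes PD-L1, had 145, 160, 154, and 161 CPM. The order Vsir (151), Sirpa (139), Lgals9 (86.2), and Cd274 (39.2) per kilobase held without overlap among these 4. Lilrb4a, an inhibitory receptor, was highest with 441 per kilobase, but 100% of its words occur in other genes. Pdcd1lg2, which encodes PD-L2, had 19.4 CPM, and Pvr and Nectin2, the ligands of TIGIT, had 19.0 and 14.1 CPM. Fasl, the death ligand CD95L, had 3 counts or fewer in every library, as did Vsig4, and Vtcn1 had 0 counts. The receptors that T cells carry were low, with means of 0.504 CPM for Pdcd1, 0.206 for Lag3, and 0.0786 for Ctla4.

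Cytokine receptors were detected in 41 of 47 cases, with a median of 12.3 per kilobase. The chains of the GM-CSF receptor are given first. Csf2rb, the beta chain shared by the GM-CSF, IL-3, and IL-5 receptors, had 1905, 1905, 1898, and 1948 CPM, and its near copy Csf2rb2 had 608, 612, 609, and 615 CPM, with about 30% of words shared for each (30.2% and 30.7%). Csf2ra, the GM-CSF chain, had 167, 179, 185, and 186 CPM. The beta chain stood above the alpha chain without overlap, at 402 against 76.9 per kilobase. The decoy receptor Il1r2 (520 per kilobase) was highest, whereas Il1r1, the signaling receptor, had 2.32 CPM. Il4ra, Il10ra, and Il17ra had 240, 147, and 224 CPM. Il2rb, Il5ra, Il17rc, Il27ra, and Epor were not detected in all libraries, and Osmr had 0 counts.

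All 20 genes of the IL-6 pathway list were detected, with a median of 22.6 per kilobase. Il6ra had 80.1, 87.4, 79.7, and 80.2 CPM, and Il6st, which encodes gp130, had 55.9, 56.1, 62.3, and 61.9 CPM. Stat3 had 204, 197, 208, and 207 CPM, and its feedback inhibitor Socs3 had 139, 137, 149, and 150 CPM. These receptor and signaling genes were even over the libraries. Genes known to respond to STAT factors had higher values per kilobase, with 218 for the survival factor Mcl1, 216 for the kinase Pim1, and 88.4 for Cish, against 9.47 for Il6ra and 6.81 for Il6st. The cells' own Il6 had 1.68 to 3.47 CPM.

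Receptors for chemoattractants were detected in 19 of 34 cases (55.9%), against 50.7% of protein-coding genes. The median was 0.906 per kilobase, and high and absent members stood side by side. Ccr1 had 437, 471, 446, and 480 CPM, and Cxcr2, the receptor of neutrophils for ELR chemokines, had 375, 382, 351, and 375 CPM. Cxcr4, which retains cells in the marrow through CXCL12, had 200, 207, 207, and 201 CPM. Per kilobase Ccr1 (162) and Fpr2 (158), a receptor for formyl peptides, overlapped, as did Ltb4r1 (125), for leukotriene B4, and Cxcr2 (122). C5ar1, for complement C5a, had 95.3 and Ccr2 28.7. Ccr7, which guides cells to lymph nodes, had 33.2 CPM. Cxcr3, Ccr8, and Fpr3 had 0 counts, and Ackr1 had 3 counts or fewer in every library. Fpr2 shares 46.8% of its words with other genes.

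Of 31 pattern recognition genes 28 were detected, with a median of 12.3 per kilobase. The highest were the lectins Clec4n (625), which encodes dectin-2, and Clec7a (290), which encodes dectin-1, both receptors for fungal walls, followed by Cd14 (204). Tlr2 had 268, 314, 277, and 299 CPM and Tlr4 137, 158, 139, and 143 CPM, both highest in replicate 2. Ly96, the partner of TLR4 for lipopolysaccharide, had 2.72 to 3.06 CPM, or 3.81 per kilobase against 35.1 for Tlr4. Tlr3, Tlr11, and Tlr12 were not detected in all libraries. Among Fc and complement receptors 12 of 15 were detected, with Fcer1g (438), the shared signaling chain, Fcgr3 (362), and the inhibitory Fcgr2b (148) highest per kilobase after the CD11b and CD18 chains, and Cr2 of B cells had 0 counts.

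Of 61 cytokine genes, 28 were detected (45.9%), a share near the 50.7% of all protein-coding genes. Another 21 had 3 counts or fewer in every library, as had 7778 of the 21434 protein-coding genes. The median of the list was 0.268 per kilobase. Il1rn, the antagonist of the IL-1 receptor, had 798, 847, 794, and 849 CPM. Il1b had 91.3, 98.4, 95.7, and 106 CPM. Tgfb1 had 360, 374, 365, and 350 CPM. The antagonist exceeded Il1b in every library, at 332 against 72.2 per kilobase. Mif (506), of which 51.6% of words are shared, and Grn (285), progranulin, were the other high members, and Ebi3 (52.7), a chain of IL-27 and IL-35, overlapped with Vegfa (49.2). Tnf had 56.9 ± 3.80 CPM. Il12a had 3.14 CPM and Il12b 0.280 CPM.

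Il10, Csf2, Ifng, Ifnb1, Il17a, Il3, Il9, Il19, Il21, Il24, Il34, Areg, Ifna4, and Ifnl2 had 0 counts in all 4 libraries. Il2, Il5, Il11, Il22, Cd40lg, and Ereg had 3 counts or fewer in every library, and so had Fasl. The upper limit of 3 counts corresponds to 0.108 CPM in the deepest library and 0.139 CPM in the shallowest. These values cover messenger RNA at a single time, and protein was not analysed here.

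Of the 38 chemokines and related chemoattractants, a list that includes the S100 pair, 21 were detected and 13 were at the floor. The detected share was 55.3%, against 50.7% of protein-coding genes. Ccl6 (3335 per kilobase) stood above Ccl9 (334), a relative that shares its receptor CCR1, without overlap. Ccl17 had 149, 149, 140, and 145 CPM and Ccl22 had 122, 130, 121, and 126 CPM, both ligands of CCR4. Cxcl3 had 161, 163, 155, and 159 CPM, and Cxcl2 had 109, 136, 115, and 113 CPM, both ligands of CXCR2. Cxcl2 was highest in replicate 2, whereas the other 3 genes were even. Ccl2, the ligand of CCR2, had 57.2 ± 3.47 CPM. Cxcl1, another ligand of CXCR2, had 3 counts or fewer in every library, as had Cxcl9 and Cxcl11, and Cxcl12, Ccl11, and Ccl20 had 0 counts.

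Ligands were then set beside receptors in 16 pairs, which were chosen after the lists had been seen. In 12 pairs the receptor gene was higher per kilobase in every library, in 3 the ligand gene was higher, and in 1 the ranges overlapped. This count depends on the partner chosen, since Il1b (72.2) was set beside the decoy Il1r2 (520), whereas the signaling receptor Il1r1 had 0.395 per kilobase. The ligand was higher for Tgfb1 (164) and Tgfbr2 (11.6), for Ccl2 (70.3) and Ccr2 (28.7), and for Ccl6 (3335) and Ccr1 (162). Cxcl2 (106) and Cxcr2 (122) overlapped. In 6 of the other pairs the ligand was at 0 counts while the receptor was detected, namely Csf2 and Csf2rb, Il10 and Il10ra, Ifng and Ifngr1, Ifnb1 and Ifnar1, Il17a and Il17ra, and Cxcl12 and Cxcr4.

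Transcription factors were widely present, with 108 of 120 detected and a median of 15.4 per kilobase. Xbp1, a factor of the unfolded protein response and of secretory cells, had 533, 538, 535, and 528 CPM. Cebpb, which drives emergency granulopoiesis, had 323, 314, 315, and 283 CPM. Spi1, which encodes PU.1, had 330, 352, 353, and 327 CPM. These 3 led the list per kilobase at 271 ± 2.15, 205 ± 11.8, and 168 ± 6.86, and none of them overlapped with the next. Nfe2 (126) and Bhlhe40 (122) overlapped, and Cebpe (108), the factor of granule gene expression in late granulocytes, came next. Cebpa, of early granulocyte progenitors, had 58.7 per kilobase, and Gfi1, a repressor of monocyte genes in granulocytes, had 26.7. Irf8, of monocytes and dendritic cells, had 11.2 and Klf4 2.27.

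**Figure D3:**
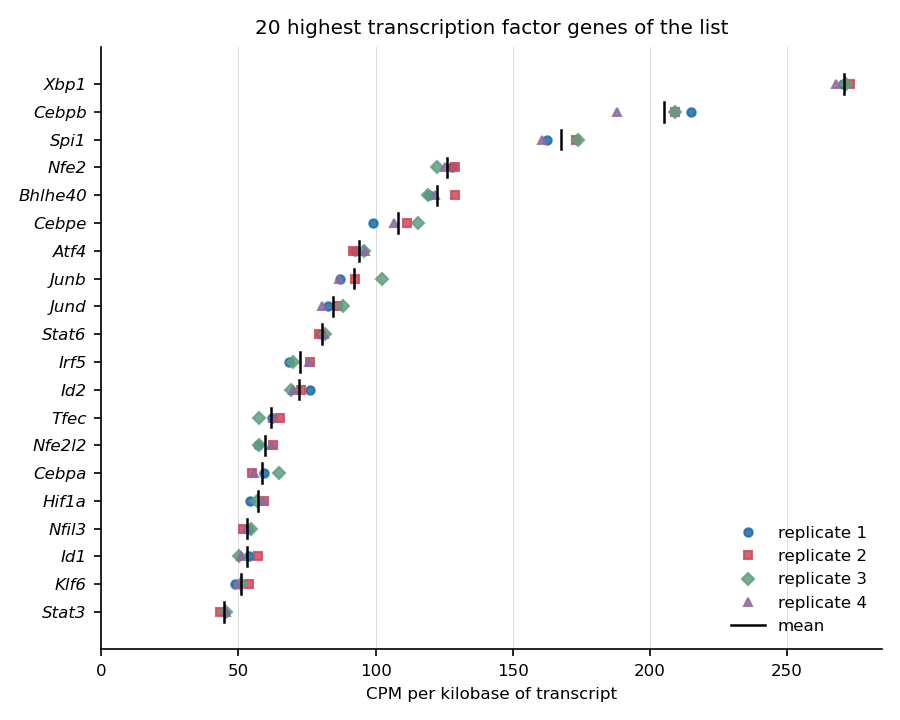
CPM per kilobase of transcript (x axis, starting at 0) for the 20 highest of 120 transcription factor genes, with a symbol for each of the 4 libraries and a line for the mean. Xbp1 at 271, Cebpb at 205, and Spi1 at 168 lie apart from the rest, which start at 126.

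Among signal-dependent factors, Atf4 (93.9) of the stress response, Junb (92.1), Stat6 (80.5), Irf5 (72.5), Hif1a (57.3), and Stat3 (44.7) were at intermediate levels per kilobase, whereas Fos had 3.62 and Fosb was not detected in all libraries. Factors that define lymphocytes were low or absent, with 3 counts or fewer in every library for Foxp3, Tbx21, and Eomes, and 0.291 CPM for Gata3. Pax5, of B cells, was detected at 2.31 CPM. Nr1h3, Hes1, Hoxa10, Lef1, Ebf1, and Bcl11b were the other members not detected in all libraries.

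Genes of the cell cycle were detected in 37 of 38 cases, with a median of 43.7 per kilobase. The tubulins Tubb5 and Tuba1b had 1087 ± 20.8 and 1159 ± 18.1 CPM, and the histone H2az1 had 391 ± 5.43 CPM. Mki67, the Ki-67 antigen, had 639, 395, 593, and 575 CPM, and Top2a, which untangles DNA, had 531, 486, 539, and 517 CPM. Both were lowest in replicate 2. Pcna, the sliding clamp of replication, was more even with 211 to 219 CPM. The D cyclins were led by Ccnd3 (214 per kilobase), above Ccnd2 (36.02) and Ccnd1 (5.99). Of the inhibitors, Cdkn1a (190 per kilobase) was highest and Cdkn2a had 3 counts or fewer in every library.

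The libraries differed little from each other, yet by more than counting error. For 8521 genes with at least 10 CPM the median coefficient of variation (CV) was 5.49%, or 4.42% after the counting part was removed, and 59 genes had a CV above 20%. Pearson correlations of log2 values between pairs of libraries ran from 0.994 to 0.996 across genes, which are not independent replicates, and no pair of libraries agreed within sampling noise. A chi-square of counts per degree of freedom was 10.7 to 11.1 for pairs with replicate 2 and 5.17 to 6.82 for the others, and in replicate 2 longer transcripts were lower. For the genes with the longest transcripts (5235 bases or more) the median deviation from the mean of the libraries was −0.06 on the log2 scale in replicate 2, against 0.01, 0.03, and 0.03 in replicates 1, 3, and 4. For the shortest (2220 bases or fewer) it was 0.03 in replicate 2. Mki67 and Fn1, which have long transcripts, were lowest there, and the part of transcript length in their values was not tested.

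**Figure D4:**
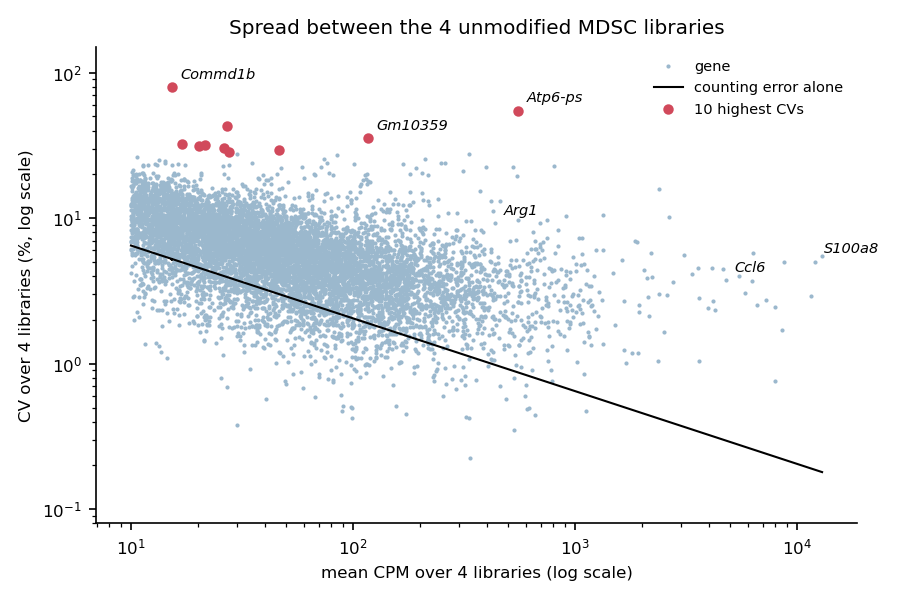
CV over the 4 libraries (y axis, percent, log scale) against mean CPM (x axis, log scale) for 8521 genes, with a line for counting error alone and large points for the 10 highest CVs. Most genes lie above the line, the median CV is 5.49%, and Commd1b at 79.3% and Atp6-ps at 54.9% are highest.

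Of the 10 genes with the highest CV, 7 shared at least 90% of their words with other genes. Commd1b had 18.2, 29.2, 13.6, and 0 CPM, with a CV of 79.3%. Atp6-ps, a nuclear copy of the mitochondrial gene mt-Atp6, had 588, 229, 451, and 957 CPM, and mt-Atp6 itself had 2503, 2856, 2200, and 1981 CPM. In replicate 2 the nuclear copy was lowest and mt-Atp6 highest, and in replicate 4 the reverse held. Their sum had 3091, 3085, 2651, and 2939 CPM, with a CV of 7.0%. Septin2 (CV 28.3%), a cytoskeletal GTPase, shared 0% of its words and was lowest in replicate 2. Other genes among the 10 were Gm20431, Gm10359, Rpl14-ps1, Gm28043, Gm10288, and Gm45837, with CVs from 29.2% to 42.8%.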

How the data were processed

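Poly(A)-enriched RNA of 4 MDSC libraries was analysed. The authors deposited raw counts per gene symbol, made with Salmon 1.4.0 against GENCODE transcripts of GRCm39 and summed with tximport in R 4.3.2, with no normalization. The GENCODE release is not given in the sources used here. Libraries were grouped by title, and 1 entry without a symbol, holding 0 counts, was left out.

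CPM was the count divided by all gene counts of the library. Lengths came from GENCODE release M39 (canonical transcripts), and 0.0503% of counts had none. A gene was detected at 1 CPM or more in all 4 libraries, and the floor was 3 counts. Shared sequence is the percent of a gene's 31-base words that other genes also hold, read along the transcript. Spread is the SD over 4 libraries, and no groups were tested.

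Genes named were the 20 highest by CPM and per kilobase, the given markers, the 8 highest members of each list and those at the floor, other list members with their values, and the 10 with the highest CV. The members and lists were chosen with earlier results of these data known. Of 665 list entries, 660 were in the table, and some genes are not reported here. Motifs, ligand pairs, and printed promoters were chosen after the values were seen.

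Alternatives were other thresholds, library factors by the trimmed mean of M values (TMM) in edgeR 4.0.16 with R 4.3.3, exclusion of mitochondrial genes, other transcript lengths, and leaving out each replicate. The steps were tested on simulated data. Figures were drawn with matplotlib 3.10.9 in Python 3.11.15, and tables were handled with pandas 2.3.3 and numpy 2.4.6.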

Additional observations from a re-analysis of the deposited data

Results flagged for a closer look

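In 8 of 205 values tested, each the CPM of a gene, 1 library lay far from the other 3. The measure was its gap to the nearest library over the whole range. Chance gives about 1 in 20, so 8 of 205 is no more than chance gives. In replicate 2, Ccl6 had 5072 CPM against 4696 to 4736 in the others. Lcn2 had 4418 CPM there, against 4208 to 4228. Ccr2, the chemokine receptor, had 172 CPM in replicate 2 and about 162 (161.9 to 162.3) in the others. Fn1 was lower in replicate 2, with 1122 CPM against 1388 to 1419. In replicate 1, Ngp had 8248 CPM against 7846 to 7880. Cd79b, a chain of the B cell receptor, had 8.34 CPM in replicate 1 against 6.30 to 6.64. Jak2, a kinase of cytokine receptors, was lower there, with 284 CPM against 300.1 to 302. In replicate 4, Csf2rb had 1948 CPM against 1898 to 1905. Of the 8, 4 came from replicate 2, but with a total no more than chance gives, no conclusion about that library is drawn.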

How the results depend on the processing

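The number of detected genes was 11622 at 0.5 CPM and 9413 at 5 CPM, against 11070 at 1 CPM, and 11129 to 11147 when a replicate was left out. With 0 counts in every library as the rule, 18155 genes were absent, against 20364 at 3 counts or fewer. Detected list genes ranged from 414 at 5 CPM to 500 at 0.5 CPM. The lists that changed by over 1.5 times were T cell (1 gene at 5 CPM), B cell (11 at 0.5 CPM and 4 at 5 CPM), and erythroid and megakaryocytic genes (7 at 5 CPM). TMM factors, from 0.995 to 1.01, moved no named gene by more than its SD. Without mitochondrial genes all levels rose by a factor of 1.02, which exceeded the SD in 29 of 197 named genes. Of the 20 highest genes per kilobase, 18 remained with the longest transcript, 19 with the median one, and 16 by CPM. The median CV beyond counting error was 3.44% to 4.3% when a replicate was left out, lowest without replicate 2, and 5.24% for genes with at least 1 CPM. No paired analysis was possible because only 1 group was described and no test was made. Depth limits statements on genes under 0.139 CPM.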

Other observations

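Genes outside the lists were examined last, and those named here were chosen after their values were seen. Cd52, a short surface protein of leukocytes, had 570 CPM and 1092 per kilobase. Ifitm1, an interferon-inducible membrane protein, had 628 CPM and 842 per kilobase, and S100a6, another S100 protein, had 645 CPM and 827 per kilobase. B2m, the light chain of class I molecules, had 908 CPM and 836 per kilobase. The antioxidant genes Gpx1 and Prdx5 had 985 and 1215 CPM, or 919 and 769 per kilobase. Cstdc4, a cystatin of the stefin kind, had 680 CPM and 1317 per kilobase.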
